A study of Schizosaccharomyces pombe with 9 samples.

Results

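The genes described here encode the stress signalling and redox defence machinery of the fission yeast Schizosaccharomyces pombe, as measured in 2 strains that each lack 1 copy of the gene for ribosomal protein L32. They were chosen by symbol families, such as tps, gst, grx, ptc and atf. The families gave 51 genes, each with 1 probe set, out of 2937 S. pombe probe sets on the array. A probe set is the group of short oligonucleotides that reads 1 transcript.

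Fission yeast answers heat, osmotic and oxidative stress through a phosphorelay and a MAP kinase cascade that ends in the kinase Sty1. Sty1 acts on the bZIP transcription factor Atf1, which pairs with Pcr1, and tyrosine and serine/threonine phosphatases switch the kinase off. Pap1, an AP-1-like factor that works with the response regulator Prr1, drives much of the peroxide response. Products of these routes include catalase, peroxiredoxins, the thioredoxin and glutathione systems and the enzymes of trehalose, a sugar that protects proteins and membranes.

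Total RNA was hybridised to 9 Affymetrix arrays, 3 for each of 3 strains. The strain SD1 is SPQ-01 with rpl32-1 deleted, SD2 is SPQ-01 with rpl32-2 deleted, and WT is SPQ-01 itself. All of them grew at 30 °C in YEPD, a rich glucose medium, were collected at an OD600 of 5.0 and were described as log phase. The labels call the arrays of a strain biological replicates but name no separate transformant for a deletion, so each strain stands as 1 line, and p-values measure only the spread between these arrays. The values are log2 expression levels, so a difference of 1 is a 2-fold difference. Levels are not compared between genes, because probe sets differ in brightness.

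The deleted genes matched the labels. The probe set of rpl3201, the current name of rpl32-1, averaged 5.04 ± 0.944 in SD1, 14.85 ± 0.315 in SD2 and 14.13 ± 0.292 in WT (SD, n = 3 each). That of rpl3202, or rpl32-2, averaged 8.01 ± 0.826 in SD2, 14.28 ± 0.178 in SD1 and 14.24 ± 0.135 in WT. The array also carries probe sets for Saccharomyces cerevisiae, whose 95th percentile, 5.17 on average, served as a background level. By that measure 49 of the 51 genes were above background on all 9 arrays, and atf21 and atf31 were not. Of 31 S. cerevisiae probe sets with symbols of the same families, 2 were above it on all arrays, CCP1 with a median of 6.47 and SOD1 with 5.83.

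The differences between strains were not equally independent across the array numbers. Between SD1 and WT, the 51 differences taken on the arrays numbered 1 and on the arrays numbered 3 differed by a median of 0.052, and 38 of the 51 lay within 0.1 of each other. The same differences on the arrays numbered 1 and 2 departed from each other by a median of 0.198. Between SD2 and WT the medians were 0.0422 and 0.233, and 45 of the 51 genes lay within 0.1 on the arrays numbered 1 and 3. The largest departure between the arrays numbered 1 and 3 was that of cmk2, at 0.95 for SD1 and 0.97 for SD2. The values of arrays 1 and 3 within a strain were less alike than those of arrays 2 and 3. Over all S. pombe probe sets they differed by a median of 0.166 in SD1, 0.167 in SD2 and 0.169 in WT. For arrays 2 and 3 those medians were 0.084, 0.0962 and 0.143. Whether the arrays numbered 1 and 3 came from the same RNA was not tested. A second fit, chosen after the data were seen, therefore averaged the arrays numbered 1 and 3 of a strain, leaving 2 values per strain, and each call described here that it ended is given with its adjusted p.

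**Figure D1:**
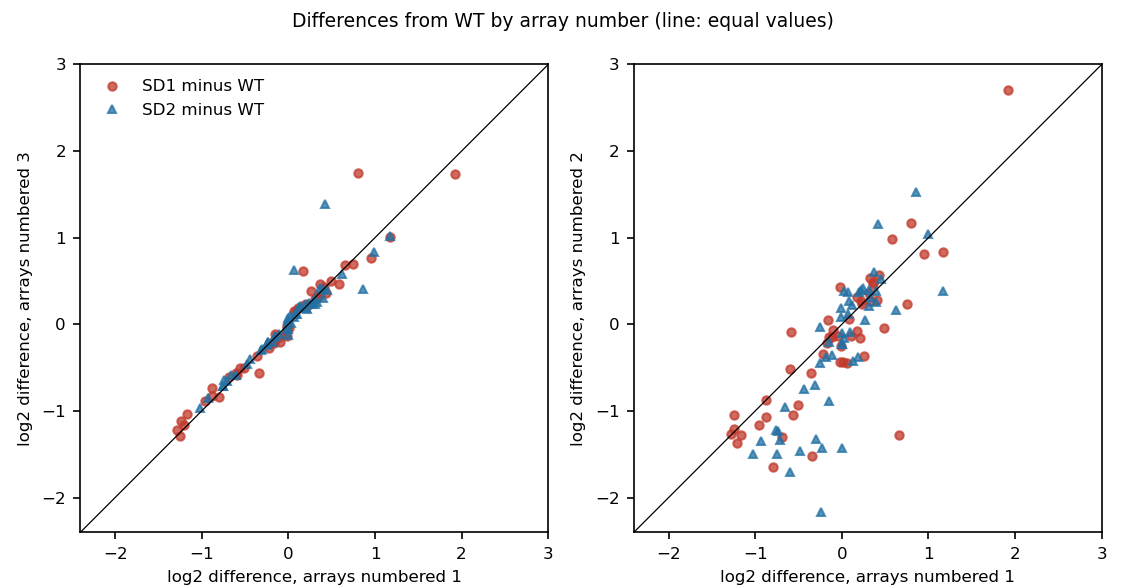
Differences from WT (log2) of the 51 genes, taken between arrays of the same number, for SD1 (circles) and SD2 (triangles). The left panel sets the arrays numbered 3 (vertical) against those numbered 1 (horizontal), the right panel those numbered 2, and the line marks equal values. The left points lie closer to the line than the right ones, with median departures of 0.052 and 0.0422 on the left and 0.198 and 0.233 on the right. On the left cmk2 departs most, by 0.95 and 0.97, and atf21 next.

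RNA measures also moved with the strains. The 3' minus 5' signal of the 18S rRNA control was -0.37 ± 0.0547 in SD1, -0.43 ± 0.126 in SD2 and -1.17 ± 0.324 in WT on the log2 scale (SD, n = 3 each). For the 28S rRNA control it was 0.38 ± 0.229 in SD1, 0.26 ± 0.123 in SD2 and -0.23 ± 0.211 in WT. For the ACT1 control it was 0.30 in SD1, 0.33 in SD2 and 0.30 in WT. The part of these measures in the changes described here was not tested.

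In SD1, 11 of the 51 genes were higher than in WT and 15 were lower (limma, Benjamini-Hochberg adjusted p under 0.05 over 2937 probe sets). Among all S. pombe probe sets 19.5% were called higher and 23.7% lower, and the genes' own shares were 21.6% and 29.4%, near that background. In SD2, 8 of the 51 were higher and 12 lower, or 15.7% and 23.5%, against 17.6% higher and 14.3% lower among all S. pombe probe sets. The SD2 counts depended on single arrays: 5 genes were higher without SD2 array 2, SD2 array 3, WT array 2 or WT array 3, and 7 were lower without SD2 array 2. The 51 genes had a median change of -0.09 in SD1 and -0.01 in SD2, and all probe sets had one of -0.03 in SD1 and 0.01 in SD2. The median size of the change, regardless of sign, was 0.39 in SD1 and 0.36 in SD2 for the 51 genes, against 0.28 and 0.23 for all probe sets. SD1 and SD2 were set against the same 3 WT arrays, so their changes are not independent, and 7 of the higher genes and all 12 of the genes lower in SD2 were called in both.

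**Figure D2:**
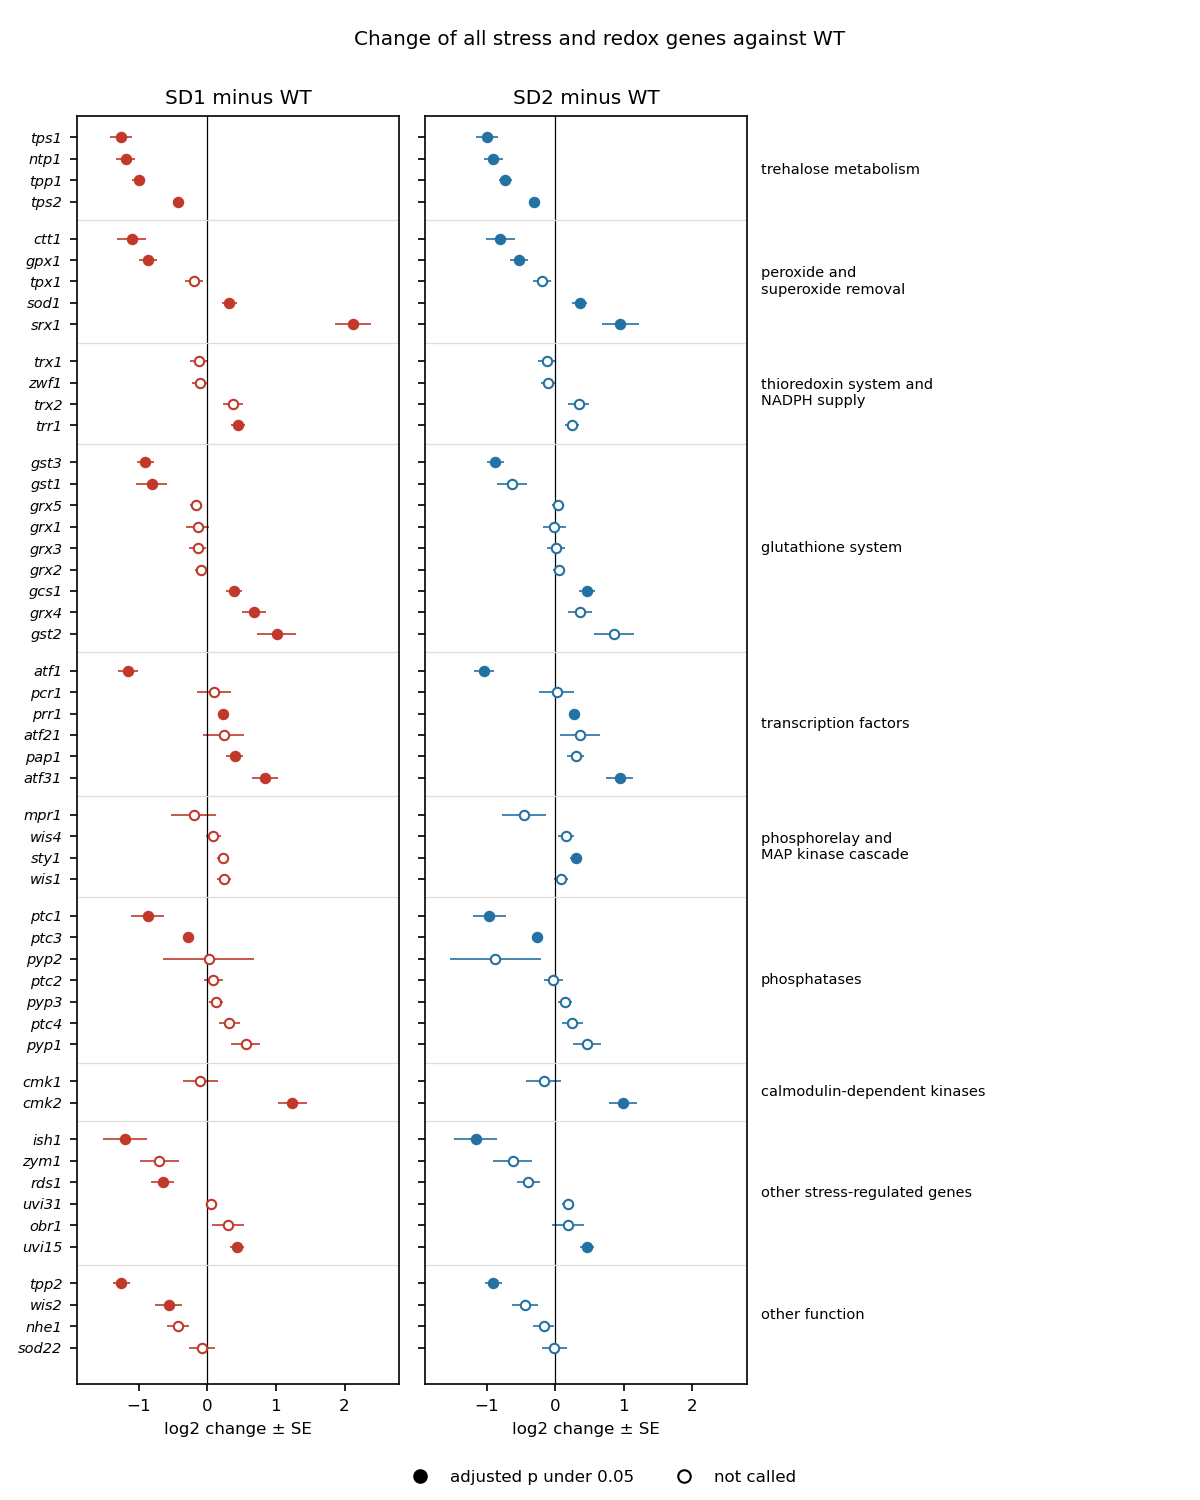
Log2 change of each of the 51 genes against WT with its standard error (horizontal), for SD1 on the left and SD2 on the right, grouped by function. Filled points passed an adjusted p under 0.05: all 4 trehalose genes lie left of 0 in both panels, and srx1 has the largest increase in SD1, 2.12.

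At least 2-fold changes among the called genes were more often decreases. In SD1, 7 genes were at least 2-fold lower (13.7%, against 2.89% of all probe sets) and 3 were at least 2-fold higher (5.88%, against 5.38%). In SD2, 2 genes, atf1 and ish1, were at least 2-fold lower (3.92%, against 1.5%), and none was at least 2-fold higher (against 3.3%). The number of genes whose 3 arrays all lay below the 3 WT arrays was 15 in SD1 and 13 in SD2, and all lay above for 12 in SD1 and 11 in SD2. Over all probe sets those shares were 28.6% below in SD1, 20.2% below in SD2, 23.3% above in SD1 and 23.1% above in SD2.

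**Figure D3:**
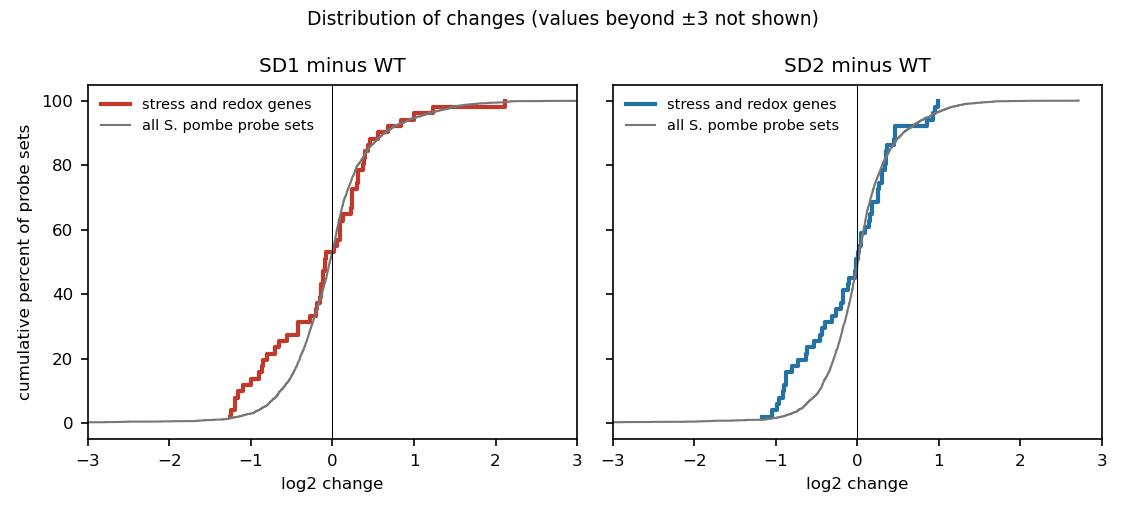
Cumulative percent of probe sets (vertical) against the log2 change from WT (horizontal), for the 51 genes (coloured) and all S. pombe probe sets (grey), with SD1 on the left and SD2 on the right. The medians nearly coincide, at -0.09 and -0.03 in SD1 and at -0.01 and 0.01 in SD2, while the 51 genes spread more widely, with a median size of change of 0.39 against 0.28 in SD1 and 0.36 against 0.23 in SD2.

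The genes of trehalose metabolism fell together. All 4 were lower in SD1 (against 23.7% of all probe sets) and all 4 were lower in SD2 (against 14.3%). Both the enzymes that make the sugar and the enzyme that degrades it were among them. The group was formed with earlier results of these data known, and both deletions were set against the same WT arrays. A lower signal from a culture can mean fewer cells that use a gene or less RNA in each cell, and these cannot be told apart here.

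The probe set of tps1, the trehalose-6-phosphate synthase, read 11.56, 11.82 and 11.43 in SD1, 12.09, 11.59 and 11.94 in SD2, and 12.84, 13.09 and 12.65 in WT. All 6 deletion arrays lay below all WT arrays. The change was -1.26 ± 0.164 (SE) in SD1, 2.39-fold lower (limma adjusted p = 0.000484), and -0.99 ± 0.164 in SD2, 1.98-fold lower (limma adjusted p = 0.00279). On the same-numbered arrays 1, 2 and 3 it was -1.28, -1.27 and -1.22 in SD1. In SD2 it was -0.75, -1.50 and -0.71, largest on array 2.

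For tpp1, the phosphatase that completes trehalose synthesis, the arrays read 11.01, 11.11 and 11.04 in SD1, 11.31, 11.32 and 11.35 in SD2, and 11.96, 12.26 and 11.93 in WT. The 3 strains did not overlap, with SD1 lowest. It fell by 1.00 ± 0.0946 in SD1 (limma adjusted p = 0.000149) and by 0.73 ± 0.0946 in SD2 (limma adjusted p = 0.00106). Neutral trehalase, encoded by ntp1, hydrolyses the sugar. Its values were 10.64, 10.97 and 10.65 in SD1, 11.17, 10.84 and 11.11 in SD2, and 11.89, 12.18 and 11.77 in WT, again with every deletion array below every WT array. The change was -1.19 ± 0.143 in SD1, 2.29-fold lower (limma adjusted p = 0.000343), and -0.90 ± 0.143 in SD2, 1.87-fold lower (limma adjusted p = 0.00216).

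Another predicted synthase gene, tps2, fell less, by 0.43 ± 0.073 in SD1 (limma adjusted p = 0.00182) and by 0.31 ± 0.073 in SD2 (limma adjusted p = 0.0131). Its 3 arrays lay between 10.64 and 10.66 in SD1, between 10.75 and 10.80 in SD2 and between 11.00 and 11.21 in WT, with no overlap. The SD2 call of tps2 ended when arrays 1 and 3 were averaged (limma adjusted p = 0.0655). The other trehalose calls passed in that fit, with adjusted p between 0.00324 and 0.021 in SD1 and between 0.0119 and 0.0141 in SD2, and all 4 genes kept their calls in both deletions whichever single array was left out.

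Among the enzymes that remove peroxide and superoxide, 2 of 5 genes fell and 2 rose in each deletion, or 40.0% each way. Of all probe sets 23.7% were lower and 19.5% higher in SD1, and 14.3% and 17.6% in SD2. Catalase, encoded by ctt1, read 11.57, 11.12 and 11.21 in SD1, 11.89, 11.31 and 11.60 in SD2, and 12.37, 12.77 and 12.05 in WT. The deletion arrays all lay below the WT arrays. It fell by 1.10 ± 0.213 in SD1, 2.14-fold (limma adjusted p = 0.0034), and by 0.80 ± 0.213 in SD2, 1.74-fold (limma adjusted p = 0.0208). The difference was largest on the arrays numbered 2, at -1.65 in SD1 and -1.46 in SD2, against -0.80 and -0.84 in SD1 and -0.48 and -0.46 in SD2 on the other arrays. The SD2 call was lost when SD2 array 2, SD2 array 3 or WT array 2 was left out, with changes between -0.80 and -0.62 and adjusted p between 0.057 and 0.0736. The glutathione peroxidase gene gpx1, whose arrays also did not overlap WT, fell by 0.86 ± 0.13 in SD1 (1.81-fold, limma adjusted p = 0.00104) and by 0.53 ± 0.13 in SD2 (1.45-fold, limma adjusted p = 0.0151). Without SD2 array 2 or array 3 its SD2 call ended (limma adjusted p from 0.0537 to 0.056).

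Sulfiredoxin, the product of srx1, repairs peroxiredoxin that peroxide has over-oxidised. Its probe set read 10.72, 11.62 and 11.25 in SD1, 9.78, 9.94 and 10.34 in SD2, and 8.80, 8.91 and 9.52 in WT. The strains stood in 3 separate ranges, SD1 highest and WT lowest. It rose by 2.12 ± 0.266 in SD1, 4.35-fold (limma adjusted p = 0.00042), the largest change among the 51 genes. In SD2 it rose by 0.95 ± 0.266, 1.93-fold (limma adjusted p = 0.0254). That call was lost without SD2 array 2, SD2 array 3, WT array 1 or WT array 2, with changes between 0.79 and 0.99 and adjusted p between 0.0604 and 0.0891, passed with arrays 1 and 3 averaged (limma adjusted p = 0.0248), and was lost again when that averaging was fitted with the array number as a block (adjusted p = 0.0635).

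The gene of the peroxiredoxin itself, tpx1, was not called, at -0.19 ± 0.131 in SD1 (limma adjusted p = 0.266) and -0.19 ± 0.131 in SD2 (limma adjusted p = 0.299). With the array number as a block, its adjusted p was 0.033 in SD1 and 0.0397 in SD2. The block alone called 10 uncalled genes in each deletion, tpx1 among them, and with arrays 1 and 3 averaged before the block none of those calls passed (adjusted p from 0.0502 to 0.239 in SD1 and from 0.0651 to 0.267 in SD2). The copper/zinc superoxide dismutase gene sod1 rose by 0.32 ± 0.109 in SD1 (1.24-fold, limma adjusted p = 0.0449) and by 0.36 ± 0.109 in SD2 (1.28-fold, limma adjusted p = 0.0362). Both sod1 calls depended on single arrays. The SD1 difference on the arrays numbered 2 was -0.04, against 0.49 and 0.50 on the others, and averaging arrays 1 and 3 raised the adjusted p to 0.275 in SD1 and 0.146 in SD2. Leaving out SD1 array 1 or 3, or WT array 1 or 3, ended the SD1 call (adjusted p up to 0.154). Leaving out any SD2 array, or WT array 1 or 3, ended the SD2 call (adjusted p up to 0.102), as did centring each array on its median (adjusted p = 0.05).

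**Figure D4:**
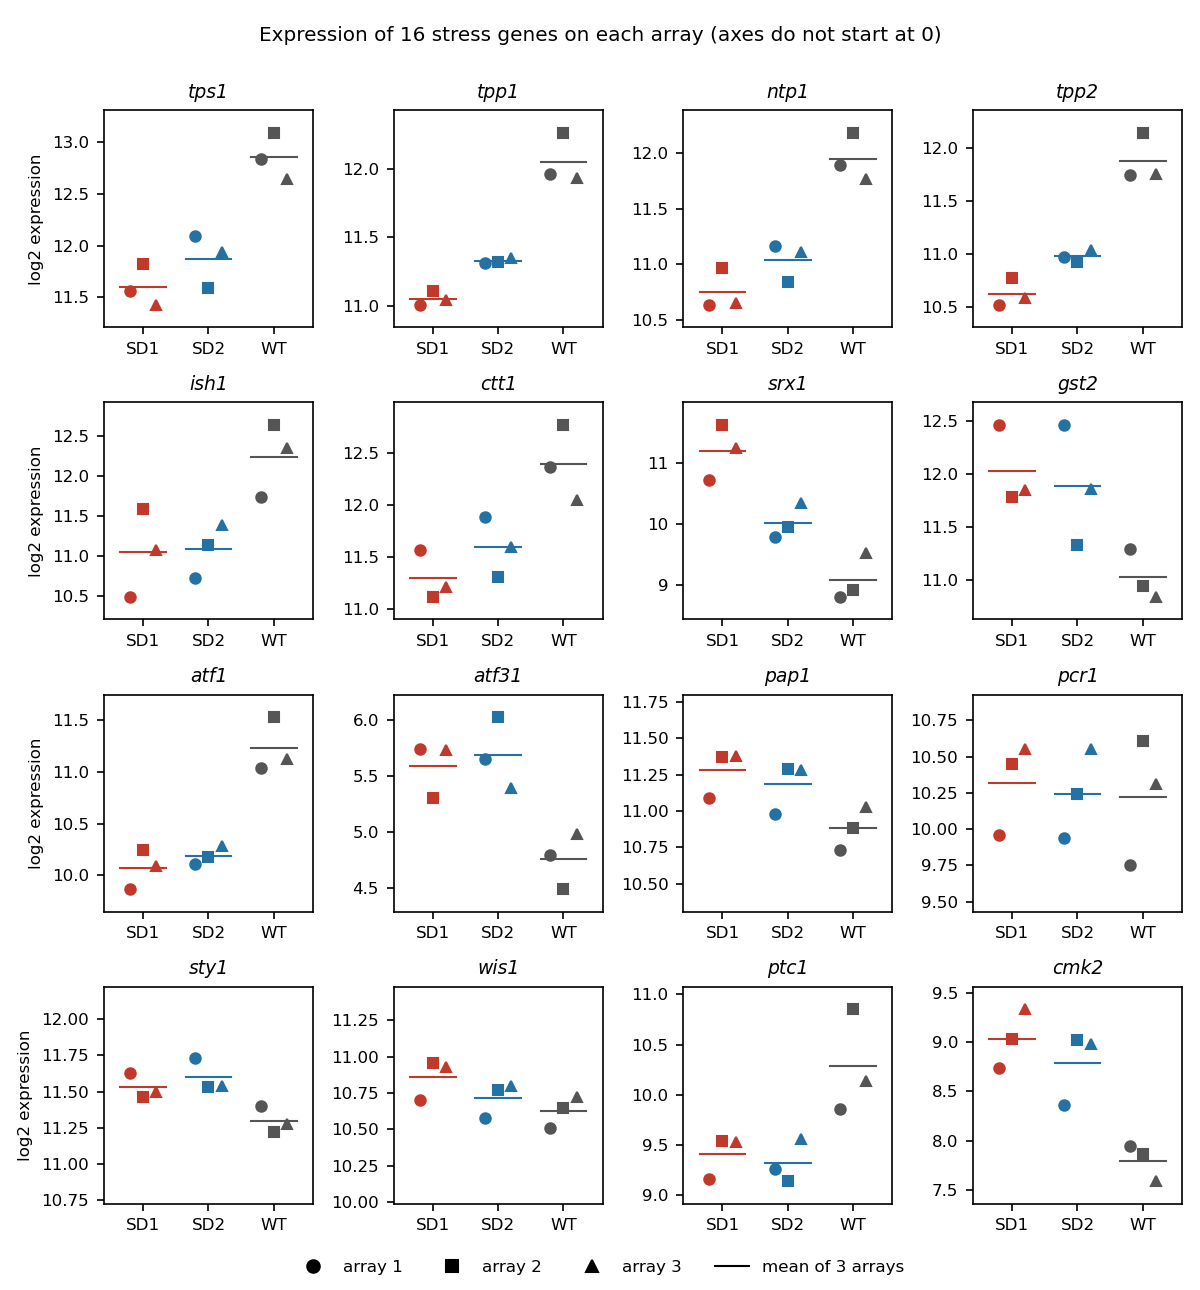
Log2 expression on each array (vertical) for 16 genes, in SD1 (red), SD2 (blue) and WT (grey), with the marker shape giving the array number and the line the mean of 3 arrays. The panels have their own vertical ranges, which do not start at 0. The tps1, tpp1, ntp1, tpp2, ish1, ctt1, atf1 and ptc1 values are lower and those of srx1, gst2, atf31, sty1 and cmk2 higher on every deletion array than on every WT array, whereas the pcr1 and wis1 arrays of the strains overlap.

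The thioredoxin system, which returns electrons from NADPH to peroxiredoxin, is represented by 4 genes. In SD1 1 of them was called, higher, a share of 25.0% against 19.5% of all probe sets. In SD2 none was called by limma, where trr1 and trx2 had an unadjusted p under 0.05, as did 26 of the 51 genes (51.0%) and 42.6% of all probe sets. Thioredoxin reductase, trr1, rose by 0.45 ± 0.104 in SD1 (1.37-fold, limma adjusted p = 0.00785), and its difference in SD2 was 0.25 ± 0.104 (limma adjusted p = 0.102). The mitochondrial thioredoxin gene trx2 had differences of 0.37 in SD1 and 0.34 in SD2 that did not pass (limma adjusted p = 0.0685 and 0.113), and with the array number as a block both passed (adjusted p = 0.00245 and 0.00492). The cytosolic thioredoxin gene trx1 stood at -0.12 in SD1 and -0.12 in SD2. For zwf1, glucose-6-phosphate dehydrogenase and a source of NADPH, the differences were -0.11 and -0.10.

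In the glutathione system, 3 of 9 genes rose and 2 fell in SD1 (33.3% and 22.2%), and 1 rose and 1 fell in SD2 (11.1% each). Of all probe sets 19.5% rose and 23.7% fell in SD1, and 17.6% and 14.3% in SD2. The 3 glutathione S-transferase genes, whose products attach glutathione to foreign or oxidised compounds, differed in direction. The probe set of gst2 read 12.46, 11.78 and 11.85 in SD1, 12.46, 11.33 and 11.86 in SD2, and 11.29, 10.94 and 10.84 in WT. Every deletion array lay above every WT array, with the SD2 arrays the most spread. It rose by 1.01 ± 0.29 in SD1, 2.01-fold (limma adjusted p = 0.0215), and its difference in SD2, 0.86 ± 0.29, just missed the threshold (limma adjusted p = 0.0512). The SD1 call was lost without SD1 array 1, WT array 2 or WT array 3 (changes from 0.79 to 0.96, adjusted p from 0.0677 to 0.0684).

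The other transferases went the opposite way. gst3 fell by 0.90 ± 0.127 in SD1 (1.86-fold, limma adjusted p = 0.000734) and by 0.87 ± 0.127 in SD2 (1.83-fold, limma adjusted p = 0.00148), and kept both calls with any single array left out. gst1 fell by 0.81 ± 0.224 in SD1 (1.75-fold, limma adjusted p = 0.0181), and stood at -0.63 in SD2 (limma adjusted p = 0.0621). The gst1 difference in SD1 was -0.34, -1.52 and -0.56 on arrays 1, 2 and 3, and the call was lost without SD1 array 2, SD1 array 3 or WT array 2 (changes from -0.78 to -0.59, adjusted p from 0.0559 to 0.0657) and after quantile normalization (adjusted p = 0.051).

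Glutamate-cysteine ligase, gcs1, catalyses the first step of glutathione synthesis. It rose by 0.39 ± 0.119 in SD1 (1.31-fold, limma adjusted p = 0.0286) and by 0.46 ± 0.119 in SD2 (1.37-fold, limma adjusted p = 0.0191). Its calls were lost without SD1 array 1 or 2, SD2 array 1, or WT array 2 or 3, with adjusted p between 0.0571 and 0.0923 in SD1 and between 0.0511 and 0.0618 in SD2, and centring each array on its median also ended the SD1 call (adjusted p = 0.0541). Of the 5 glutaredoxins, only grx4 was called in this fit. This monothiol glutaredoxin, known for its part in iron-dependent gene control, rose by 0.68 ± 0.17 in SD1 (1.60-fold, limma adjusted p = 0.0122), and its SD2 difference was 0.36 ± 0.17 (limma adjusted p = 0.138). The differences of the dithiol glutaredoxins grx1 and grx2 and the monothiol grx3 and grx5 lay between -0.16 and -0.09 in SD1 and between -0.01 and 0.05 in SD2, none called. With the array number as a block, grx3 was called lower in SD1 (adjusted p = 0.0365).

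The transcription factors did not move together. atf1 read 9.87, 10.25 and 10.09 in SD1, 10.11, 10.18 and 10.28 in SD2, and 11.04, 11.53 and 11.13 in WT. The gap between the deletion and WT arrays was wider than the range of any strain. It fell by 1.16 ± 0.145 in SD1, 2.24-fold (limma adjusted p = 0.000408), and by 1.04 ± 0.145 in SD2, 2.06-fold (limma adjusted p = 0.00125), and both calls passed in every setting tried.

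Its partner pcr1 was not called. The pcr1 arrays read 9.96, 10.45 and 10.55 in SD1, 9.94, 10.24 and 10.55 in SD2, and 9.75, 10.61 and 10.31 in WT, with full overlap. The differences were 0.10 ± 0.251 in SD1 and 0.02 ± 0.251 in SD2, and their sign turned with the array left out. Whether the atf1 change differed from that of pcr1 was not tested.

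The related bZIP gene atf31 was at or below the background level in WT, where its arrays read 4.79, 4.49 and 4.98. In SD1 they read 5.74, 5.30 and 5.73, and in SD2 5.65, 6.02 and 5.39, all above the WT arrays. Set against the background level, atf31 rose at least 1.32-fold in SD1 and at least 1.41-fold in SD2 (limma adjusted p = 0.0084 and 0.0073). After quantile normalization the SD2 change was 0.69 and did not pass (limma adjusted p = 0.0742), and its difference on arrays 1, 2 and 3 was 0.86, 1.53 and 0.41. atf21, another bZIP gene, averaged 4.74 in SD1, 4.87 in SD2 and 4.51 in WT, below the background average, and no fold is given.

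pap1 read 11.09, 11.37 and 11.38 in SD1, 10.98, 11.29 and 11.28 in SD2, and 10.73, 10.88 and 11.03 in WT. The SD1 arrays lay above all WT arrays, and the lowest SD2 array lay within the WT range. It rose by 0.40 ± 0.125 in SD1, 1.32-fold (limma adjusted p = 0.0314), and stood 0.30 ± 0.125 above WT in SD2 (limma adjusted p = 0.101). Without SD1 array 2 or 3, or WT array 1 or 2, the SD1 call was lost (changes from 0.32 to 0.40, adjusted p from 0.0753 to 0.106), and with the array number as a block SD2 was called as well (adjusted p = 0.00439). prr1 rose by 0.23 ± 0.0682 in SD1 (1.18-fold, limma adjusted p = 0.0222) and by 0.27 ± 0.0682 in SD2 (1.21-fold, limma adjusted p = 0.0175). Those prr1 calls ended with arrays 1 and 3 averaged (adjusted p = 0.116 in SD1 and 0.0802 in SD2) and without SD1 array 1 or 3, WT array 2 (SD1, adjusted p up to 0.0813) or SD2 array 2 (SD2, adjusted p = 0.0614).

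Of the 4 genes of the phosphorelay and kinase cascade, only sty1 was called, and only in SD2 (25.0%, against 17.6% of all probe sets called higher). The MAP kinase gene sty1 read 11.63, 11.46 and 11.50 in SD1, 11.73, 11.53 and 11.54 in SD2, and 11.40, 11.22 and 11.28 in WT, so both deletions lay above all WT arrays. It was 0.23 ± 0.0888 above WT in SD1 (limma adjusted p = 0.0651) and rose by 0.30 ± 0.0888 in SD2, 1.23-fold (limma adjusted p = 0.0322). The SD2 call was lost without any 1 of the SD2 arrays or without WT array 2 or 3 (adjusted p from 0.0519 to 0.0958), with each array centred on its median (adjusted p = 0.0975) and with arrays 1 and 3 averaged (adjusted p = 0.0886). With the array number as a block, sty1 passed in SD1 (adjusted p = 0.00272) and in SD2 (adjusted p = 0.00177), and in neither when arrays 1 and 3 were averaged before the block (adjusted p = 0.0775 and 0.061).

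wis1, the MAP kinase kinase that activates Sty1, read 10.70, 10.96 and 10.93 in SD1, 10.58, 10.77 and 10.80 in SD2, and 10.51, 10.65 and 10.72 in WT. The strains overlapped, and the differences were 0.24 ± 0.101 in SD1 (limma adjusted p = 0.0894) and 0.09 ± 0.101 in SD2 (limma adjusted p = 0.537). With the block, wis1 was called higher in SD1 (adjusted p = 0.00386). The kinase kinase kinase gene wis4 stood at 0.09 in SD1 and 0.16 in SD2, and the phosphotransfer gene mpr1 at -0.20 in SD1 and -0.46 in SD2, none called. The mpr1 value in SD2 came from the arrays numbered 2, where the difference was -1.43, against 0.00 and 0.05 on the others.

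Of the 7 phosphatase genes, 2 fell in each deletion and none was called higher without the block. The 2 were 28.6% of the group, against 23.7% of all probe sets called lower in SD1 and 14.3% in SD2. The shares of all probe sets called higher were 19.5% and 17.6%. ptc1, a type 2C phosphatase of the Sty1 pathway, read 9.16, 9.54 and 9.53 in SD1, 9.26, 9.14 and 9.56 in SD2, and 9.86, 10.85 and 10.14 in WT. The deletion arrays lay below all WT arrays, of which array 2 stood highest. It fell by 0.87 ± 0.241 in SD1, 1.83-fold (limma adjusted p = 0.0181), and by 0.96 ± 0.241 in SD2, 1.95-fold (limma adjusted p = 0.0167). Leaving out SD1 array 1 ended the SD1 call (change -0.75, adjusted p = 0.0587), and leaving out SD2 array 2 ended the SD2 call (change -0.87, adjusted p = 0.0604).

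ptc3, which also acts on Sty1, fell by 0.28 ± 0.0716 in SD1 (1.21-fold, limma adjusted p = 0.0139) and by 0.26 ± 0.0716 in SD2 (1.20-fold, limma adjusted p = 0.0245). With arrays 1 and 3 averaged neither ptc3 call passed (adjusted p = 0.0652 in SD1 and 0.0827 in SD2), nor with each array centred on its median (adjusted p = 0.0918 and 0.0875). Leaving out SD1 array 3 ended the SD1 call (adjusted p = 0.0604), and SD2 array 2 or 3 or WT array 1 or 2 the SD2 call (adjusted p from 0.0505 to 0.0822). ptc2 and ptc4, of the same family, stood at 0.09 and 0.32 in SD1 and at -0.03 and 0.25 in SD2.

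pyp1, the tyrosine phosphatase that holds Sty1 in check, was 0.56 ± 0.207 above WT in SD1 (limma adjusted p = 0.0552) and 0.46 ± 0.207 in SD2 (limma adjusted p = 0.127). pyp1 and ptc4 were called higher in both deletions with the array number as a block (adjusted p between 0.00226 and 0.0172). pyp2, an inducible phosphatase of the same kinase, had the widest spread of the 51 genes. It read 9.23, 9.97 and 10.67 in SD1, 8.33, 9.08 and 9.77 in SD2, and 8.57, 11.25 and 9.99 in WT, and its SD1 difference was 0.66, -1.28 and 0.68 on arrays 1, 2 and 3. The mean differences, 0.02 ± 0.668 in SD1 and -0.87 ± 0.668 in SD2, were not called. pyp3, which acts on Cdc2 as Cdc25 does, stood at 0.13 in SD1 and 0.14 in SD2.

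The calmodulin-dependent kinase gene cmk2, whose product is a target of Sty1, read 8.74, 9.03 and 9.33 in SD1, 8.36, 9.02 and 8.98 in SD2, and 7.94, 7.86 and 7.59 in WT. Both deletions lay above all WT arrays. It rose by 1.24 ± 0.208 in SD1, 2.36-fold (limma adjusted p = 0.0017), and by 0.99 ± 0.208 in SD2, 1.99-fold (limma adjusted p = 0.00751). Its difference on arrays 1, 2 and 3 was 0.80, 1.17 and 1.75 in SD1 and 0.42, 1.16 and 1.39 in SD2. No single left-out array ended either call. The other kinase of this kind, cmk1, stood at -0.10 in SD1 and -0.17 in SD2.

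Other stress-regulated genes moved both ways. ish1, which encodes a nuclear envelope protein induced by stress, read 10.49, 11.59 and 11.07 in SD1, 10.72, 11.14 and 11.39 in SD2, and 11.74, 12.64 and 12.36 in WT. The arrays differed widely within a strain, and every deletion array still lay below the lowest WT array. It fell by 1.20 ± 0.317 in SD1, 2.29-fold (limma adjusted p = 0.0152), and by 1.16 ± 0.317 in SD2, 2.24-fold (limma adjusted p = 0.0231). Without WT array 2 the SD1 change was -1.0 (adjusted p = 0.0593). The SD2 call was lost without SD2 array 1 or 2 or WT array 2 or 3, with changes between -1.19 and -0.97 (adjusted p from 0.0594 to 0.0871).

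rds1 fell by 0.65 ± 0.169 in SD1 (1.57-fold, limma adjusted p = 0.0142) and stood at -0.39 in SD2 (limma adjusted p = 0.111). Its SD1 call was lost without SD1 array 3 or WT array 2 (adjusted p = 0.0537 at most). uvi15, a gene induced by ultraviolet light, rose by 0.43 ± 0.0988 in SD1 (1.35-fold, limma adjusted p = 0.00762) and by 0.46 ± 0.0988 in SD2 (1.38-fold, limma adjusted p = 0.0081), and kept both calls with any single array left out. uvi31, also named for ultraviolet induction, stood at 0.06 in SD1 and 0.18 in SD2.

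zym1, the metallothionein gene, stood at -0.70 ± 0.283 in SD1 (limma adjusted p = 0.0751) and -0.62 in SD2 (limma adjusted p = 0.129), and passed in SD1 with the block (adjusted p = 0.0445). The Pap1 target obr1, which encodes a flavodoxin-like protein, stood at 0.30 in SD1 (limma adjusted p = 0.332) and 0.19 in SD2 (limma adjusted p = 0.583). With the block it was called higher in both (adjusted p = 0.00442 and 0.031).

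A further 4 genes carried symbols of these families and are known for other functions. tpp2 encodes a tripeptidyl peptidase. It read 10.52, 10.77 and 10.58 in SD1, 10.97, 10.92 and 11.04 in SD2, and 11.74, 12.14 and 11.75 in WT, 3 ranges without overlap. It fell by 1.25 ± 0.121 in SD1, 2.38-fold (limma adjusted p = 0.000158), and by 0.90 ± 0.121 in SD2, 1.86-fold (limma adjusted p = 0.00114). wis2, a cyclophilin of the type that joins Hsp90, fell by 0.56 ± 0.195 in SD1 (1.47-fold, limma adjusted p = 0.046) and stood at -0.44 in SD2 (limma adjusted p = 0.123). The wis2 call was lost without SD1 array 2 or 3 or WT array 1 or 2 (adjusted p from 0.0971 to 0.149) and with each array centred on its median (adjusted p = 0.104). The gene listed on the array as sod2 is nhe1, a sodium/proton antiporter and not a superoxide dismutase, and it stood at -0.42 in SD1 (limma adjusted p = 0.0611) and -0.17 in SD2. The related antiporter gene sod22 stood at -0.08 and -0.01.

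WT array 2 was the highest of the WT arrays for 13 of the 15 genes lower in SD1 (86.7%) and for 11 of the 12 lower in SD2 (91.7%), against 73.7% and 79.2% of all probe sets called lower. It was the lowest of the WT arrays for 5 of the 11 genes higher in SD1 (45.5%, against 74.9% of all probe sets called higher). The same held for 4 of the 8 genes higher in SD2 (50.0%, against 77.6%). The largest of the 3 same-numbered differences was that on the arrays numbered 2 for 10 of the 15 genes lower in SD1 (66.7%, against 67.4% of all probe sets called lower) and for all 12 lower in SD2 (against 83.1%). Among the genes called higher it was so for 7 of 11 in SD1 (63.6%, against 72.3%) and 5 of 8 in SD2 (62.5%, against 81.3%). With arrays 1 and 3 averaged, 9 genes remained higher and 14 lower in SD1, where 16.2% and 18.0% of all probe sets were called, and prr1, sod1 and ptc3 lost their calls. In SD2, 5 remained higher and 10 lower, against 13.5% and 9.64% of all probe sets, and prr1, sod1, sty1, ptc3 and tps2 lost theirs. No other gene was called in that fit.

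With the array number as a block, 16 genes were higher and 19 lower in SD1, where 26.8% and 33.0% of all probe sets were called, and sod1 alone lost its call (adjusted p = 0.0536). In SD2, 16 were higher and 14 lower, against 26.0% and 23.6%. Beside those named above, the block added grx4 (adjusted p = 0.0355), gst2 (0.00509), trr1 (0.0173) and wis2 (0.0168) in SD2 and nhe1 (0.0137) in SD1. The block treats the near-equal differences between strains on the arrays numbered 1 and 3 as independent. With arrays 1 and 3 averaged before the block, 8 of the 26 calls in SD1 (atf31, gst1, prr1, ptc1, ptc3, rds1, sod1 and wis2) and 9 of the 20 in SD2 (atf31, ctt1, prr1, ptc1, ptc3, sod1, srx1, sty1 and tps2) were lost, with adjusted p from 0.0508 to 0.307 and from 0.061 to 0.184.

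Set directly against each other, SD2 and SD1 differed in none of the 51 genes (limma, adjusted p under 0.05), where 0.034% of all probe sets were called higher in SD2 and 0.136% lower. At an unadjusted p under 0.05, 4 genes differed (gpx1, srx1, tpp1 and tpp2), 7.84% of the 51 against 11.4% of all probe sets. None of the 51 was called with the array number as a block or with arrays 1 and 3 averaged either.

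The largest difference was that of srx1, at -1.17 ± 0.266 in SD2 minus SD1 (limma adjusted p = 0.208), 2.25-fold lower in SD2, with all SD2 arrays below all SD1 arrays. It was the only 1 of the 51 genes to lie wholly below SD1 (6.13% of all probe sets did), and 5 lay wholly above (12.2% did): tps2, tpp1, gpx1, grx5 and tpp2. On arrays 1, 2 and 3 it was -0.94, -1.67 and -0.90, and with the block its adjusted p was 0.0527. Of the genes lower than in WT in both deletions, tpp2 stood 0.35 ± 0.121 above SD1 in SD2, gpx1 0.33 ± 0.13 and tpp1 0.27 ± 0.0946 (limma adjusted p = 0.317, 0.407 and 0.317). The median difference over the 51 genes was 0.04 in SD2 minus SD1, as it was over all probe sets. Calls made against WT in SD1 and missed in SD2, or the reverse, are therefore not shown to differ between the deletions.

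Further genes around these pathways were taken from lists written with earlier results of these data known. They are given as counts, with values for some single genes. Of 13 measured genes of the Sty1 and RNA-stability branch, 4 fell and 1 rose in SD1, and 4 fell and 1 rose in SD2. Of all probe sets 23.7% fell and 19.5% rose in SD1, and 14.3% and 17.6% in SD2. No list was tested against these shares. The Sty1-activated kinase gene srk1 stood at -0.53 in SD1 and -0.63 in SD2 (limma adjusted p = 0.00987 and 0.00677). The RNA-binding protein gene cip1 stood at -0.87 and -0.53 (adjusted p = 0.000792 and 0.0131), its relative cip2 at -0.40 and -0.30 (0.0111 and 0.0475), and the zinc finger factor gene rst2 at -0.53 and -0.59 (0.00264 and 0.00271). The RNA helicase gene upf1 stood at 0.42 and 0.30 (adjusted p = 0.00225 and 0.0166). In SD2 the cip2 call was lost without any 1 of the SD2 arrays or without WT array 2 or 3 (changes from -0.34 to -0.20, adjusted p from 0.069 to 0.145) and with arrays 1 and 3 averaged (adjusted p = 0.0868). The upf1 call in SD2 was lost without SD2 array 2 or 3 (adjusted p = 0.0548 at most) and with that averaging (adjusted p = 0.0672). The upstream genes mcs4, win1, mak1, mak2 and mak3 lay between -0.25 and 0.04, none called, although with the array number as a block mak1 was called lower in both deletions (adjusted p = 0.0136 in SD1 and 0.0405 in SD2).

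Of 13 measured core stress targets, 6 fell and 1 rose in SD1, and 5 fell and 1 rose in SD2. The shares of all probe sets were 23.7% lower and 19.5% higher in SD1, and 14.3% and 17.6% in SD2. tms1, a predicted hexitol dehydrogenase gene, had the largest change of the list in SD1, at -2.45 in SD1 and -1.83 in SD2 (limma adjusted p = 0.000247 and 0.00164). The Hsp70 gene ssa1 stood at -1.69 and -2.04 (adjusted p = 0.00246 and 0.00169), the small heat shock gene hsp16 at -0.89 and -1.02 (0.0181 and 0.0143), and the vacuolar protease gene isp6 at -0.69 and -0.49 (0.0034 and 0.0228). The hsp16 call in SD1 was lost without SD1 array 1 or 3 or WT array 2 (adjusted p from 0.0525 to 0.066) and with arrays 1 and 3 averaged (adjusted p = 0.0595). The isp6 call in SD2 was lost without SD2 array 1 or 2 (adjusted p from 0.0575 to 0.0695) and with that averaging (adjusted p = 0.0527), and without WT array 2 the isp6 change was -0.32. sro1 went the other way, at 1.32 and 0.89 (adjusted p = 0.0022 and 0.0198), its SD2 call being lost without SD2 array 2 or 3 or WT array 1 (adjusted p from 0.0504 to 0.0698). The gluconeogenic gene fbp1 stood at -1.30 and -1.46 without passing (adjusted p = 0.218 and 0.194), and with the array number as a block it was called lower in both deletions (adjusted p = 0.0421 and 0.0342). On the arrays numbered 2 its difference was -2.65 in SD1 and -2.64 in SD2, against -0.63 and -0.62 in SD1 and -0.87 and -0.87 in SD2 on the others.

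Of 7 measured genes around glutathione and thioredoxin, 3 rose and 2 fell in SD1, and 2 rose and 1 fell in SD2. Against these stood 19.5% of all probe sets higher and 23.7% lower in SD1, and 17.6% and 14.3% in SD2. Glutathione reductase, pgr1, stood at 0.55 in SD1 and 0.56 in SD2 (limma adjusted p = 0.00129 and 0.00205). The gamma-glutamyltranspeptidase gene ggt1 stood at 0.71 and 0.70 (adjusted p = 0.0017 and 0.00326), and its relative ggt2 at 0.02 and -0.02. hmt1, a vacuolar transporter of phytochelatins, stood at -0.61 and -0.47 (adjusted p = 0.000473 and 0.00293), and the sulfide oxidoreductase gene hmt2 at 0.40 and 0.30 (0.0153 and 0.0591). The hmt2 call in SD1 was lost without SD1 array 2 or 3 (adjusted p = 0.06 at most), and with the block hmt2 was called in SD2 (adjusted p = 0.0034).

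Of 6 measured Pap1 transport and efflux genes, 2 rose in SD1, against 19.5% of all probe sets. None was called in SD2 by limma, against 17.6% of all probe sets called higher. There caf5 and bfr1 had an unadjusted p under 0.05, as did 42.6% of all probe sets. The 2 genes were caf5, a membrane exporter gene, at 0.88 in SD1 and 0.54 in SD2 (limma adjusted p = 0.0156 and 0.111), and bfr1, a drug efflux pump gene, at 0.69 and 0.46 (0.00769 and 0.0545). Without SD1 array 2 or 3 the caf5 call was lost (adjusted p from 0.0525 to 0.0544). With the array number as a block, 3 of the 6 were higher in SD1 and 3 in SD2, namely caf5, bfr1 and pmd1. The block also called 1 of the 6, crm1, lower in SD1, and that call ended with arrays 1 and 3 averaged before the block. Another drug efflux pump gene, pmd1 stood at 0.45 and 0.47, and was still called with that averaging before the block (adjusted p = 0.0238 in SD1 and 0.0332 in SD2). In the cell integrity pathway, another MAP kinase cascade, 2 of 9 genes rose and 2 fell in SD1, and 1 rose and 1 fell in SD2. All probe sets gave 19.5% higher and 23.7% lower in SD1, and 17.6% and 14.3% in SD2. With the array number as a block, 2 rose and 3 fell in SD1, and 2 rose and 2 fell in SD2. The block shares of all probe sets were 26.8% and 33.0% in SD1, and 26.0% and 23.6% in SD2. The block added pck2 in SD1, still called with arrays 1 and 3 averaged before the block (adjusted p = 0.0348). In SD2 it added pck2 and prz1, neither called with that averaging. pmp1, the phosphatase of the kinase Pmk1, stood at 1.02 and 0.70 (adjusted p = 0.0011 and 0.0103), and the first kinase of that cascade, mkh1, at -0.67 and -0.41 (0.0029 and 0.0344). The mkh1 call in SD2 was lost without SD2 array 1 or 3 or WT array 2 or 3 (changes from -0.42 to -0.32, adjusted p from 0.0804 to 0.111) and with arrays 1 and 3 averaged (adjusted p = 0.0767). In SD1 pek1 stood at -0.52 and pmk1 at 0.52 (adjusted p = 0.00205 and 0.00411), and in SD2 at -0.12 and 0.19, not called.

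Markers of the mating types moved with the same comparison. Of 6 M-cell genes (mfm1, mfm2, mfm3, mam1, mam2 and sxa2), 5 were lower in SD1 and 2 in SD2, mam1 most, at -1.66 in SD1 and -1.12 in SD2 (limma adjusted p = 6.7e-05 and 0.000447). Of all probe sets 23.7% were called lower in SD1 and 14.3% in SD2. The SD1 calls of mfm2 and mfm3 were each lost without any 1 of 4 arrays (adjusted p from 0.0591 to 0.119). In SD2 the block also called mfm2 lower than in WT, as it did with arrays 1 and 3 averaged before the block (adjusted p = 0.0447). With the array number as a block, 3 of the 6 (mfm1, mfm2 and mam1) were called higher in SD2 than in SD1 (adjusted p = 0.0237, 0.0307 and 0.0321), and none with arrays 1 and 3 averaged before the block (adjusted p = 0.679). The summed level of the 6 genes ranged from 11.45 to 12.27 in SD1, from 12.03 to 12.91 in SD2 and from 12.65 to 13.51 in WT, on the log2 scale. The brightest probe sets weigh most in such a sum. Of 4 P-cell genes 2 were measured, and map2 was higher in both deletions while map3 was not called. Their summed level ranged from 8.22 to 8.43 in SD1, from 8.18 to 8.40 in SD2 and from 7.88 to 8.11 in WT, and no marker was at or below background on all arrays of a strain. The part of mating-type composition in the stress gene changes was not tested.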

How the data were processed

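The deposited table holds a log2 expression value for each probe set on each array. The authors made it with RMA and Partek, per the submitters' processing notes, which give no version or setting. Whether the 9 arrays were normalized together was not given in the sources used here. Probe sets were named through the platform annotation by gene number, with 3 matched by symbol. For a listed gene with several probe sets, the brightest was used.

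Strains were compared by linear models in limma, version 3.58.1, run in R, version 4.3.3. A single model with a mean for each strain took in the 9 arrays, and its variances were moderated with eBayes. P-values were adjusted by Benjamini-Hochberg within a comparison, over 2937 S. pombe probe sets, and a probe set was called where the adjusted p was under 0.05. Errors of changes are the moderated standard errors of that fit. The fit was also run on simulated data, with an outcome that is not given here. Whether its p-values hold where differences between strains nearly repeat on arrays of different numbers, as some did here, was not tested. Arrays give no read depth, so their number limits the precision. A fold against a strain whose arrays were all at or below background was set against the background level as a lower bound.

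The members, the gene lists and the grouping by function were chosen with earlier results of these data known. Named were all called members, array by array the 12 with the largest changes and sty1, wis1, atf1, pcr1 and pap1, and up to 4 called genes per list and comparison, with isp6 beyond that number (uncalled list genes that are named, such as fbp1, ggt2 and the mak genes, were chosen after their values were seen). Arrays numbered alike shared 74 to 4218 exactly equal values per pair, and arrays of different numbers shared 0 to 4. The array number was therefore used as a block, in alternative fits only. The labels name no batch, and the main fit had no term for the number. After each strain's mean was taken off, same-numbered arrays correlated with each other at between -0.10 and 0.87, the lowest being SD2 with WT on the arrays numbered 2. All were above 0 for SD1 against WT and for SD2 against SD1 only. Arrays of different numbers correlated at between -0.87 and 0.75. SD1 array 2 correlated more with SD2 array 3 (0.60) and WT array 3 (0.41) than with SD2 array 2 (0.13) and WT array 2 (0.28). A replicate block, other scalings, a filter on dim probe sets, an intensity trend, fits on fewer arrays and arrays 1 and 3 averaged were run as alternatives. Sequences, promoter motifs and genome positions were not analysed here.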

Additional observations from a re-analysis of the deposited data

How the results depend on the processing

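Centring each array on its median, quantile normalization, the filter on dim probe sets, the intensity trend and the fit on 6 arrays gave 9 to 14 genes higher and 14 or 15 lower in SD1, and 6 to 9 higher and 11 to 14 lower in SD2. Single calls changed with the scaling: centring ended those of gcs1, ptc3 and wis2 in SD1 and of ptc3, sod1 and sty1 in SD2, and quantile normalization those of gst1 in SD1 and atf31 in SD2. The fit on 6 arrays ended those of sod1 and prr1 in SD1 and of sty1, ptc3 and prr1 in SD2. Over every probe set of the table, 7 genes were higher in SD1, against 11. The replicate block raised the genes higher in SD2 to 16, against 8, and among all S. pombe probe sets those lower in SD2 to 694, against 419, those higher in SD2 than in SD1 to 16, against 1, and those lower to 9, against 4. With arrays 1 and 3 averaged, 5 genes were higher in SD2, and with the block added to that averaging 3 were. The averaged fit with the block gave 328 S. pombe probe sets higher and 240 lower in SD2 than in WT, and 0 lower in SD2 than in SD1. Leaving out 1 array at a time gave 8 to 11 genes higher and 11 to 15 lower in SD1, and 5 to 7 higher and 7 to 13 lower in SD2, and from 261 to 486 S. pombe probe sets lower in SD2. Leaving out all arrays numbered 2 gave 6 genes higher and 9 lower in SD1 and 2 higher and 6 lower in SD2. Over all S. pombe probe sets it gave 453 lower in SD1, and 309 higher and 186 lower in SD2. Leaving out all arrays numbered 3 gave 3 genes higher and 8 lower in SD1 and 1 higher and 6 lower in SD2, with 278 S. pombe probe sets higher and 220 lower in SD1, 166 higher and 69 lower in SD2, and 1 lower in SD2 than in SD1. Leaving out all arrays numbered 1 gave 14 genes higher and 15 lower in SD1 and 10 higher and 13 lower in SD2. Over all S. pombe probe sets it gave 654 higher and 841 lower in SD1, and 613 higher and 516 lower in SD2. It also gave 2 probe sets higher and 2 lower in SD2 than in SD1. Each of these fits has fewer arrays, and the counts also depended on which number was left out. The uncalled pcr1 changed sign. With 1 array left out its difference ranged from -0.14 to 0.29 in SD1, negative without SD1 array 3 (-0.02) and WT array 1, and from -0.22 to 0.21 in SD2, negative without SD2 array 3 (-0.14) and WT array 1. In SD2 it was -0.07 without all arrays numbered 1, -0.09 without all numbered 3 and -0.08 with arrays 1 and 3 averaged, with or without the block. None of the 51 genes was called between SD2 and SD1 in any alternative. Signal over background limits only atf21 and atf31 among the 51 genes.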
